A study of Meleagris gallopavo with 3 samples.

Results

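The genes described here belong to the programmes that build cartilage and bone, measured in muscle stem cells of the turkey. The set is defined by gene symbol and holds 10 genes, of which 6 were found in the deposited table by that symbol, out of 23976 genes in all. These are the transcription factor SOX9, aggrecan (ACAN), cartilage oligomeric matrix protein (COMP), osteopontin (SPP1), interferon-induced transmembrane protein 5 (IFITM5) and matrix Gla protein (MGP). SOX5, SOX6, RUNX2 and ALPL did not match a symbol and were dropped, although RefSeq pairs a further feature of the table with RUNX2, which is given beside SOX9 as a related gene. Levels are given in CPM, the exon reads of a gene per 1000000 exon reads of its library. All 6 genes found reached 5 CPM somewhere, the minimum used for comparisons, but SOX9 and ACAN did so in the Differentiating library alone and IFITM5 in the Adherent library alone. For these 3 genes a difference between libraries therefore follows in part from the minimum itself.

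Satellite cells from the breast muscle of 1-day-old turkeys were grown for 2 weeks and divided into groups. Differentiated cells were kept attached in medium with 4% horse serum to form myotubes. Adherent undifferentiated cells were kept on gelatin in medium with 15% chicken serum. Suspension cells were rotated in flasks, also with 15% chicken serum by the study's methods, for 3 months. No group was treated with any agent. The experiment was run 3 times and the RNA of each group was combined into 1 library, so there are no replicates, and the spread between cultures was not measured. The libraries headed Differentiating, Adherent and Suspension held 22816125, 17444865 and 23844835 exon reads, in which 1 read equals 0.0438, 0.0573 and 0.0419 CPM.

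The headings need care. In the deposited table, the fold change headed Suspension and Differentiating equals in size, signs aside, the ratio of the Adherent and Differentiating counts in 100% of 12207 genes with at least 10 reads in both. The fold change headed Adherent and Differentiating equals in the same way the ratio of the Suspension and Differentiating counts in 100% of 12154 genes (tolerance 0.02 on the log2 scale). The fold change headed Suspension and Adherent equals the ratio of the counts so headed in 100% of 12196 genes, and an exchange of both names would keep the size of this ratio and turn its sign. The study's text also uses the names Adherent and Suspension in the exchanged sense, so it is uncertain which culture each of these count columns holds. The libraries are called here by the headings of their count columns, not by culture. If these headings are exchanged, every direction between the Adherent and Suspension libraries turns round, and of the 6 genes IFITM5 also changes direction between the differentiated cells and each of the other groups.

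Cartilage is laid down by chondrocytes under the control of SOX9, which acts with SOX5 and SOX6 on the genes of type II collagen and aggrecan. Bone is laid down by osteoblasts under RUNX2, and its mineral forms where alkaline phosphatase (ALPL) removes pyrophosphate, while osteopontin and matrix Gla protein hold mineral growth back. None of these genes is confined to the skeleton. COMP is also a protein of tendon, MGP is abundant in the vessel wall, and osteopontin is made by macrophages and by injured muscle. These roles are known from mammals and the chicken.

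In the Differentiating library, SOX9, ACAN, COMP and SPP1 stood above both other libraries, by 3.12-fold at the least (SPP1 over the Suspension library). In the Adherent library, MGP and IFITM5 stood above both others, by 46.9-fold at the least (MGP over the Suspension library). The Suspension library was highest for none of the 6 genes and lowest for ACAN, COMP and IFITM5. In libraries of whole cultures, fewer cells of a type and less RNA per cell cannot be told apart. The 95% intervals given below are exact and cover counting error only.

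**Figure D1:**
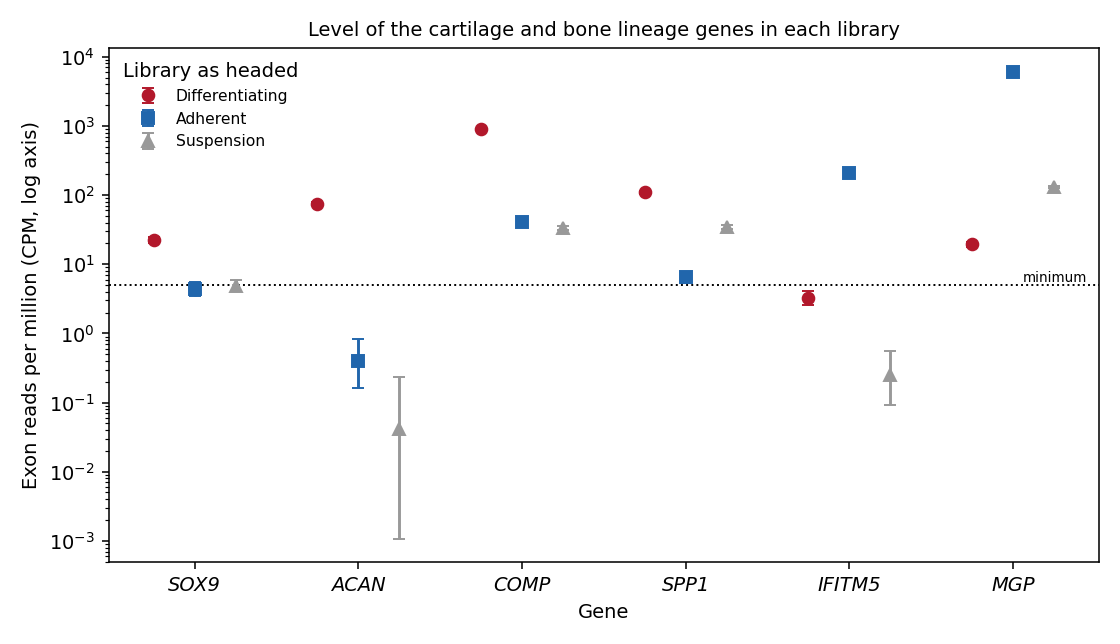
Level of 6 cartilage and bone lineage genes, in CPM on a log axis, in the Differentiating (circles), Adherent (squares) and Suspension (triangles) libraries, with exact 95% counting intervals and the minimum of 5 CPM as a dotted line. SOX9, ACAN, COMP and SPP1 are highest in the Differentiating library, with COMP at 897 CPM, and IFITM5 and MGP in the Adherent library, with MGP at 6095 CPM.

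SOX9 had 510 exon reads, or 22.4 CPM (95% interval 20.5 to 24.4), in the Differentiating library. It had 77 reads, or 4.41 CPM (3.48 to 5.52), in the Adherent library and 117 reads, or 4.91 CPM (4.06 to 5.88), in the Suspension library. The intervals of the Adherent and Suspension libraries overlap, and their log2(ratio) was −0.15 (−0.59 to 0.27). SOX9 was higher in the Differentiating library than in the Suspension library (log2(ratio) = 2.19, 1.90 to 2.49) and in the Adherent library (log2(ratio) = 2.34, 1.99 to 2.71). The gene lies on chromosome 20 from 7139173 to 7148297 and no other feature of the table overlaps it.

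The feature that RefSeq names RUNX2 had 116, 14 and 13 exon reads in the Differentiating, Adherent and Suspension libraries. These equal 5.08 CPM (4.2 to 6.1), 0.803 CPM (0.439 to 1.35) and 0.545 CPM (0.290 to 0.932) in that order. Like SOX9, it was highest in the Differentiating library and had overlapping intervals in the others. The log2(ratio) was 3.22 (2.39 to 4.17) over the Suspension library and 2.66 (1.86 to 3.58) over the Adherent library. The feature reached the minimum of 5 CPM in the Differentiating library alone, and its interval there includes 5 CPM. Its difference between libraries therefore also follows in part from the minimum. Its model in the table is a stretch of 2884 bases on chromosome 2, from 106754969 to 106757852, without an intron and with 0 junction reads. This feature was added after its values had been seen.

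Aggrecan (ACAN), the large proteoglycan whose charged sugar chains hold water in cartilage, had 1720 exon reads in the Differentiating library, 7 in the Adherent library and 1 in the Suspension library. The levels were 75.4 CPM (71.9 to 79.0), 0.401 CPM (0.161 to 0.827) and 0.0419 CPM (0.00106 to 0.234) in the same order. ACAN was thus well detected in the differentiated cells alone, and its log2(ratio) of 10.81 (8.33 to 16.12) over the Suspension library was the number 3 value from the top among 10929 genes. Over the Adherent library the log2(ratio) was 7.55 (6.51 to 8.87), the number 10 value among 11022 genes. Between the Adherent and Suspension libraries it was 3.26 (0.30 to 8.75), which rests on 7 reads against 1 and whose interval reaches below 2-fold. ACAN lies on chromosome 12 from 12285991 to 12311950, and of its exon reads in the Differentiating library 26.2% (24.1 to 28.3) spanned a junction between exons.

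COMP, a pentameric protein of the thrombospondin family that binds collagen fibrils in cartilage and tendon, was the most abundant of the 6 genes in the Differentiating library. It had 20459 exon reads there, or 897 CPM (884 to 909), and was number 109 among all genes. The Adherent library held 719 reads, or 41.2 CPM (38.3 to 44.3), and the Suspension library 798 reads, or 33.5 CPM (31.2 to 35.9). The log2(ratio) of the Differentiating library was 4.74 (4.64 to 4.85) over the Suspension library and 4.44 (4.34 to 4.55) over the Adherent library. Between the Adherent and Suspension libraries COMP differed by 1.23-fold (log2(ratio) = 0.30, 0.15 to 0.45), short of 2-fold. The gene lies on chromosome 30 from 3419789 to 3437571.

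Osteopontin (SPP1), a secreted phosphoprotein of bone that binds integrins and mineral, was the only member lowest in the Adherent library by more than 2-fold. It had 2489 exon reads in the Differentiating library, 113 in the Adherent library and 835 in the Suspension library. These equal 109 CPM (105 to 113), 6.48 CPM (5.34 to 7.79) and 35.0 CPM (32.7 to 37.5), and no pair of intervals overlaps. The log2(ratio) was 1.64 (1.53 to 1.75) for the Differentiating over the Suspension library, −2.43 (−2.73 to −2.15) for the Adherent over the Suspension library and 4.07 (3.8 to 4.36) for the Differentiating over the Adherent library. SPP1 lies on chromosome 4 from 21252714 to 21255804.

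Matrix Gla protein (MGP), a small vitamin K-dependent protein that keeps cartilage and vessel walls from calcifying, had 441 exon reads in the Differentiating library, 106335 in the Adherent library and 3101 in the Suspension library. The levels were 19.3 CPM (17.6 to 21.2), 6095 CPM (6059 to 6132) and 130.0 CPM (126 to 135) in the same order, and MGP was number 6 of all genes in the Adherent library. MGP was the single member that was lower in the Differentiating than in the Suspension library, with a log2(ratio) of −2.75 (−2.90 to −2.61). The log2(ratio) was 5.55 (5.50 to 5.60) for the Adherent over the Suspension library and −8.30 (−8.44 to −8.17) for the Differentiating over the Adherent library. The gene lies on chromosome 1 from 46313929 to 46319215, and all its exon reads were unique to it.

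IFITM5, a membrane protein of osteoblasts that in mammals is found almost only in bone, had 74 exon reads in the Differentiating library, 3628 in the Adherent library and 6 in the Suspension library. Its levels were 3.24 CPM (2.55 to 4.07), 208 CPM (201 to 215) and 0.252 CPM (0.0923 to 0.548). The library headed Adherent thus stood far above both others, with a log2(ratio) of 9.69 (8.57 to 11.14) over the Suspension library, the number 16 value among 11020 genes. With the headings exchanged, this high level belongs to the suspension culture. The log2(ratio) of the Differentiating library was −6.00 (−6.35 to −5.67) against the Adherent library and 3.69 (2.5 to 5.18) against the Suspension library. On chromosome 5, IFITM5 runs from 6140012 to 6141790 and an unnamed feature begins 92 bases beyond it, with 14.1 CPM in the Differentiating, 364 CPM in the Adherent and 0.587 CPM in the Suspension library. In RefSeq the pair overlap. No source used here says whether reads were counted by strand, so reads of this stretch cannot be assigned to IFITM5 with certainty.

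Per kilobase of exon, the scale on which genes can be set against each other, the order of the 6 genes was different in each library. In the Differentiating library COMP had 277 CPM per kb, SPP1 91.6, MGP 26.6, SOX9 15.7, ACAN 11.0 and IFITM5 2.33. In the Adherent library MGP led with 8373 CPM per kb, before IFITM5 with 149.5, COMP with 12.7, SPP1 with 5.44, SOX9 with 3.11 and ACAN with 0.0584. In the Suspension library MGP had 179 CPM per kb, SPP1 29.4, COMP 10.3, SOX9 3.46, IFITM5 0.181 and ACAN 0.00610. MGP was thus the leading gene of the set in the Adherent and Suspension libraries and ranked below COMP and SPP1 in the differentiated cells.

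Counted over the 6 genes, 5 were at least 2-fold higher and 1 lower in the Differentiating than in the Suspension library, where 9.16% of 10929 genes tested were higher and 14.5% lower. With median-of-ratios scaling these shares of all genes were 11.4% and 11.4%, and the counts of the 6 genes did not change. In the Adherent library against the Suspension library, 3 were higher, 1 lower and 2 within 2-fold, where 20.0% of 11020 genes were higher and 21.6% lower. In the Differentiating library against the Adherent library, 4 were higher and 2 lower, where 18.3% of 11022 genes were higher and 22.7% lower. The median log2(ratio) of the 6 genes in these comparisons was 2.94, 1.78 and 3.21, and that of all genes tested was −0.18, −0.15 and −0.05. SOX9 and ACAN reached the minimum of 5 CPM in the Differentiating library alone and IFITM5 in the Adherent library alone. Part of these counts and medians therefore follows from the minimum. IFITM5 for the Differentiating over the Suspension library, and ACAN and SOX9 for the Adherent over the Suspension library, compare levels that both lie below it. The comparisons share libraries, and the genes were chosen with earlier results of these data known, so the counts describe these libraries and are no test of the culture conditions.

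**Figure D2:**
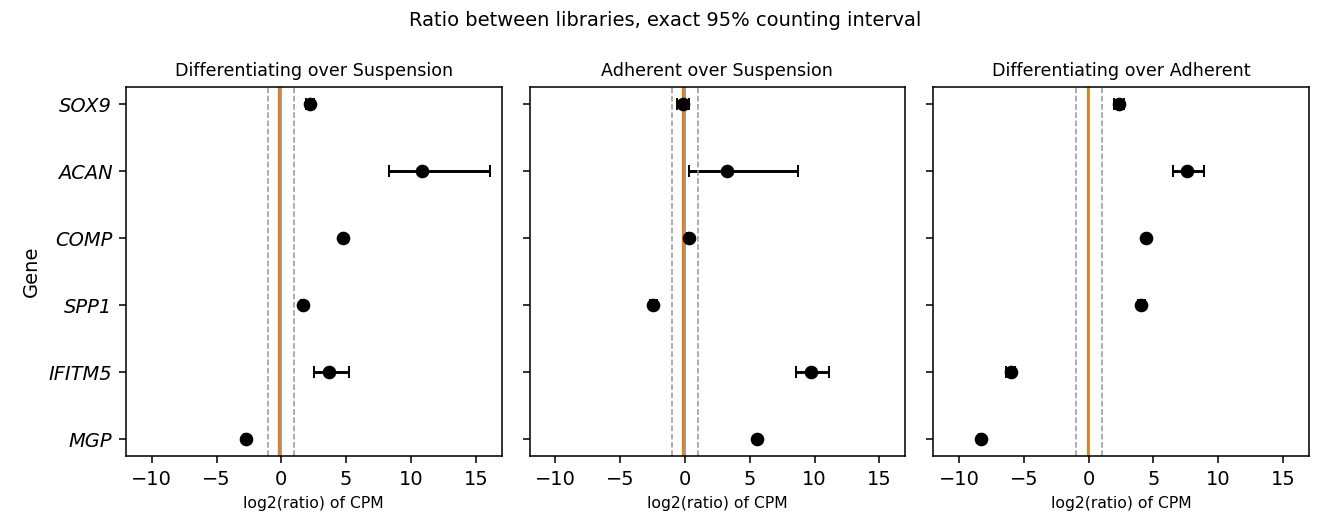
The log2(ratio) of CPM of each gene in the 3 comparisons (points), with exact 95% counting intervals. Dashed lines mark 2-fold and the orange line the median of all genes tested; SOX9 and COMP lie within 2-fold for the Adherent over the Suspension library, and ACAN has the widest intervals.

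Intron reads, which come from unspliced RNA or from outside the exon models, give a second count for each gene. Over all genes, the intron share of reads was 12.0% in the Differentiating, 24.3% in the Adherent and 15.2% in the Suspension library. In the library where each gene was highest its own share was below that of the library, at 4.67% (3.05 to 6.82) for SOX9, 7.38% (6.23 to 8.66) for ACAN, 0.684% (0.576 to 0.807) for COMP and 0.718% (0.426 to 1.13) for SPP1 in the Differentiating library. The same held in the Adherent library for MGP, at 2.35% (2.26 to 2.44), and IFITM5, at 1.57% (1.2 to 2.03). In the Adherent library the intron share of SOX9 was 24.5% (16.5 to 34.0), that of SPP1 21.5% (15.1 to 29.1) and that of ACAN 69.6% (47.1 to 86.8), or 16 of 23 reads.

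**Figure D3:**
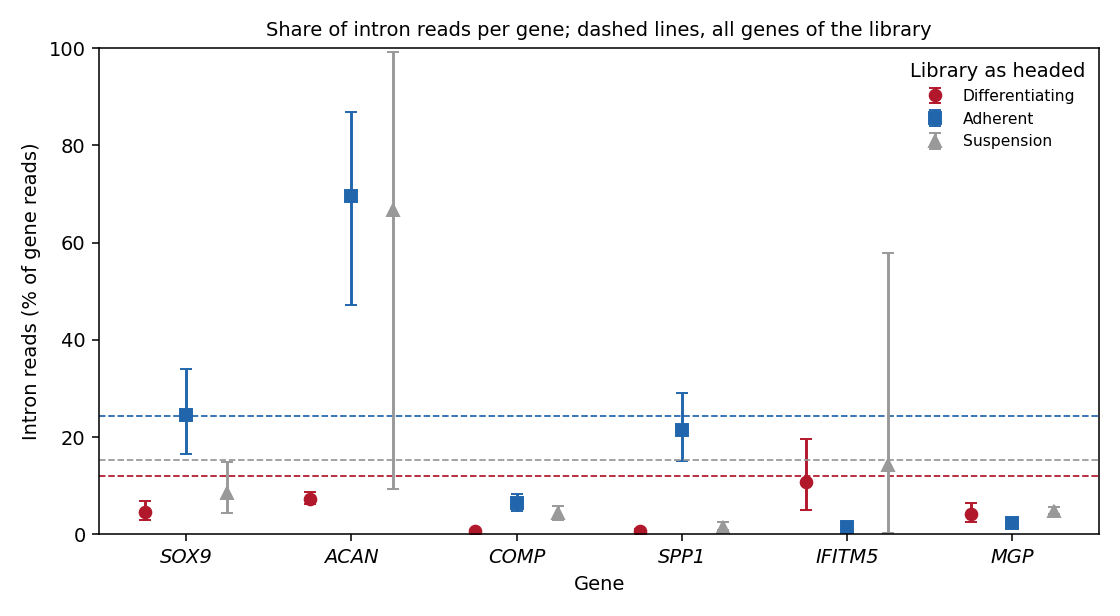
Intron reads as a percentage of gene reads for each gene in the 3 libraries, with exact 95% counting intervals and the share over all genes of each library as a dashed line. In the Adherent library SOX9 and SPP1 lie near the dashed line of the library, at 24.5% and 21.5%, and MGP and IFITM5 near 0, at 2.35% and 1.57%.

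Scaled to the intron reads of each library, the intron reads of ACAN, COMP, MGP and IFITM5 kept the direction of their exon reads where those differed by 2-fold. The change was smaller in intron reads, but not always beyond counting error. For the Differentiating over the Suspension library the log2(ratio) was 3.63 (0.78 to 9.09) for IFITM5, against 3.69 in exon reads. For MGP it was −2.60 (−3.37 to −1.91), against −2.75. For ACAN in the Adherent over the Suspension library it was 2.61 (0.53 to 5.78), against 3.26. These intervals include the values of the exon reads. For IFITM5 in the Differentiating over the Adherent library the log2(ratio) was −1.84 (−3.04 to −0.82), against −6.00 in exon reads. Over the Suspension library, the ratios of ACAN and IFITM5 rest on only 2 and 1 intron reads there. COMP had 141, 49 and 36 intron reads in the Differentiating, Adherent and Suspension libraries, with a log2(ratio) of 2.37 (1.89 to 2.87) for the Differentiating over the Adherent library, against 4.44 in exon reads. MGP had 19, 2560 and 159, with a log2(ratio) of −6.23 (−6.96 to −5.58) in the same comparison. SPP1 and SOX9 kept the direction of their exon reads for the Differentiating over the Suspension library. The log2(ratio) was 0.93 (−0.18 to 2.08) for SPP1, whose interval includes 0 and the 1.64 of its exon reads. It was 1.65 (0.57 to 2.82) for SOX9. SPP1 did not follow in the other comparisons. With 18 intron reads in the Differentiating library and 31 in the Adherent library its log2(ratio) was 0.06 (−0.86 to 0.95), an interval that does not reach the 4.07 of its exon reads. In the Adherent over the Suspension library, with 31 against 13 intron reads, the log2(ratio) of SPP1 was 0.87 (−0.11 to 1.93), where its exon reads gave −2.43. For SOX9 the 25 and 25 intron reads of the Differentiating and Adherent libraries gave a log2(ratio) of 0.85 (−0.01 to 1.71), below its 2.34 in exon reads.

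Other genes of the skeletal programmes did not share a single direction. Of 20 further cartilage matrix genes in the table, 13 could be compared between the Differentiating and Suspension libraries. Of these, 4 were higher and 4 lower by 2-fold (9.16% and 14.5% of all genes), with a median log2(ratio) of 0.13. In the Differentiating over the Adherent library 4 of 14 were higher and 7 lower (18.3% and 22.7% of all genes), with a median of −0.99. The 4 higher genes included PRELP, with 1032 CPM in the Differentiating, 189 in the Adherent and 485 in the Suspension library. They also included CILP2, with 16.3, 1.78 and 14.8 CPM in that order. CILP was instead among the 7 lower genes, with 31.3, 354 and 24.2 CPM. Matrilin 1 (MATN1), a matrix protein of cartilage, went against ACAN, with 0.0438 CPM in the Differentiating, 28.3 in the Adherent and 0.0419 in the Suspension library. Chondromodulin (CNMD), which keeps vessels out of cartilage, likewise was highest in the Adherent library, with 2.98, 45.1 and 11.7 CPM in that order, as was COL9A2, a chain of the collagen on the surface of cartilage fibrils, with 0.219, 14.7 and 1.38 CPM. Type X collagen (COL10A1) of hypertrophic cartilage stayed at 0.287 CPM or below in all 3 libraries. The gene of type II collagen was sought by name and matched no feature of the table.

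Relatives of aggrecan and of COMP did not share 1 order. Versican (VCAN), the hyaluronan-binding proteoglycan of loose connective tissue, had 515 CPM in the Differentiating, 22.2 in the Adherent and 365 in the Suspension library, and brevican (BCAN) had 52.2, 1.15 and 20.8 CPM. Thrombospondin 2 (THBS2), of the family of COMP, had 305 CPM in the Differentiating library, 20.3 in the Adherent library and 6.92 in the Suspension library. Thrombospondin 1 (THBS1), the most abundant of them, was instead highest in the Adherent library, with 1876, 3679 and 1716 CPM in that order. Of 6 such relatives compared, 3 were higher and 0 lower by 2-fold in the Differentiating than in the Adherent library (18.3% and 22.7% of all genes). In the Adherent over the Suspension library 3 were higher and 3 lower (20.0% and 21.6% of all genes). Link protein 3 (HAPLN3) was among those 3 higher genes, at 19.9 CPM in the Adherent library against 3.02 CPM in the Suspension library (log2(ratio) = 2.72, 2.35 to 3.11). Its 18.4 CPM in the Differentiating library lay within 2-fold of the Adherent level (log2(ratio) = −0.12, −0.33 to 0.09).

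Among 14 further regulators of cartilage in the table, 9 could be compared. In the Differentiating over the Adherent library 1 was higher and 3 lower by 2-fold (18.3% and 22.7% of all genes). Among the 3 lower genes was SOX10, which is also counted with the Schwann cell markers below. SOX8, a relative of SOX9 of the same SOX group, had 15.1 CPM in the Differentiating, 93.9 in the Adherent and 77.5 in the Suspension library and was thus lowest where SOX9 was highest. BARX2, a homeobox factor of limb cartilage and muscle, had 16.8, 2.12 and 20.8 CPM. The receptor PTH1R, which slows chondrocyte maturation, had 1.75 CPM in the Differentiating, 5.16 in the Adherent and 0.713 in the Suspension library. Against the Suspension library, 2 of 9 were higher and 2 lower in the Differentiating library, and 2 of 9 were higher and 2 lower in the Adherent library. For the Differentiating over the Suspension library the shares over all genes were 9.16% higher and 14.5% lower. The counts for the Adherent over the Suspension library are close to the shares over all genes, 20.0% higher and 21.6% lower.

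Of 11 genes of bone matrix and mineral handling compared, 7 were higher and 0 lower by 2-fold in the Differentiating than in the Adherent library, with a median log2(ratio) of 1.66, where 18.3% of all genes were higher and 22.7% lower. Against the Suspension library 5 were higher and 1 lower (9.16% and 14.5% of all genes), with a median of 0.79. Several of them serve every connective tissue. COL1A2, a chain of type I collagen, had 32780.2 CPM in the Differentiating, 3977 in the Adherent and 10967 in the Suspension library, and the collagen-binding glycoprotein SPARC had 9342, 1940.2 and 4155 CPM. Osteomodulin (OMD), a proteoglycan of mineralised matrix, followed SPP1 with 14.9, 0.745 and 3.40 CPM. In the Adherent over the Suspension library 2 of the 11 were higher and 4 lower (20.0% and 21.6% of all genes). The 2 higher genes went against SPP1 in that comparison. They were OGN, with 1249, 268 and 1.01 CPM, and CLEC3B, with 358, 118 and 31.2 CPM. Bone sialoprotein (IBSP) and DMP1, relatives of SPP1 in bone, stayed below the minimum, IBSP with 0.657, 0.172 and 1.38 CPM and DMP1 with 2.59, 1.03 and 2.81 CPM. BSPRY, also below it, was likewise lowest in the Adherent library, with 1.62, 0.631 and 1.43 CPM. SOST and SMPD3, below it too, were instead highest there, with 0.219, 4.41 and 1.01 CPM and 0.394, 1.32 and 0.923 CPM. The count of 0 lower genes over the Adherent library therefore holds only for genes that reached the minimum.

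The regulators of bone were divided. Of 13 compared, 6 were higher and 5 lower by 2-fold in the Differentiating than in the Adherent library, with a median log2(ratio) of −0.34. Over all genes tested, 18.3% were higher and 22.7% lower. RUNX1, a relative of RUNX2, had 12.5 CPM in the Differentiating, 0.229 in the Adherent and 6.42 in the Suspension library. TWIST2, a factor that holds osteoblast maturation back, had 21.3, 4.87 and 1.09 CPM. The ligand BMP4, a strong inducer of cartilage and bone, went the way of MGP, with 11.6 CPM in the Differentiating, 334 in the Adherent and 80.8 in the Suspension library. BMP6 had 0.964, 15.9 and 6.79 CPM.

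**Figure D4:**
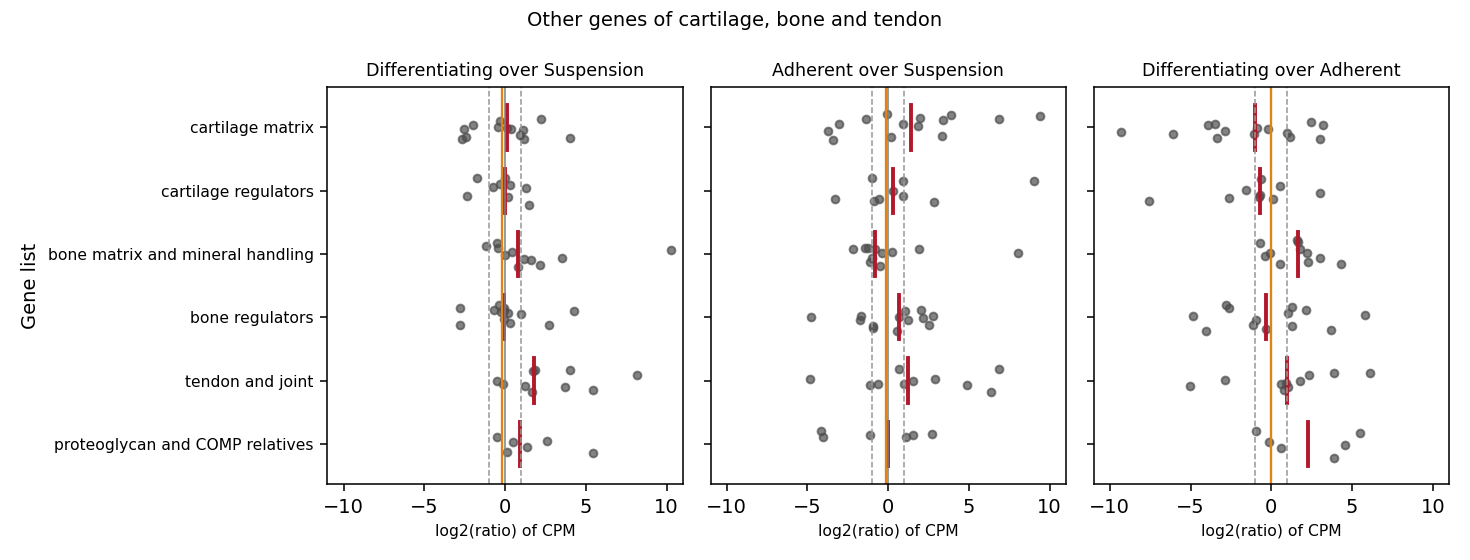
The log2(ratio) of CPM for further genes of cartilage, bone and tendon that reached 5 CPM in any library (1 point each, spread vertically for clarity), with the median of each list in red, the median of all genes tested in orange and 2-fold as dashed lines. In the Differentiating over the Adherent library the bone matrix list has a median of 1.66 and the cartilage matrix list one of −0.99.

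Markers of other cells that cultures of muscle can hold also differed between the libraries. Endothelial markers (4 of 8 in the table) summed to 3.90 CPM in the Differentiating, 332 in the Adherent and 5.54 in the Suspension library, and all 4, led by PECAM1 with 154 CPM, were highest where MGP and IFITM5 were. Schwann cell markers (3 of 7) summed to 3.33, 86.4 and 4.28 CPM, led in the Adherent library by SOX10, a factor of the neural crest, with 0.351, 65.7 and 0.126 CPM. S100B, of the same list, was instead lowest in the Adherent library, with 0.394, 0.172 and 0.252 CPM on 9, 3 and 6 reads. Smooth muscle and pericyte markers (7 of 9) summed to 1565, 1525 and 1140 CPM. In the Differentiating over the Adherent library 3 were higher and 3 lower by 2-fold (18.3% and 22.7% of all genes). The lower ones were MYH11 with 1.18, 197 and 1.01 CPM, RGS5 with 0.570, 220 and 3.98 CPM and MCAM with 38.6, 562 and 462 CPM. The higher ones included ACTA2 with 699, 277 and 440 CPM and PDGFRB with 517, 120 and 65.3 CPM. Fibroblast markers (7 of 9) summed to 25404, 5274 and 6097 CPM, highest where ACAN, COMP, SOX9 and SPP1 were. This sum is mostly COL3A1, with 21111, 3475 and 5696 CPM. Of the 7, 5 were higher and 1 lower by 2-fold in the Adherent than in the Suspension library (20.0% and 21.6% of all genes). Decorin (DCN), among the higher ones, had 2104, 1199 and 164 CPM, and TCF21 was highest in the Adherent library, with 3.94, 35.5 and 8.93 CPM. The part of these cells in the levels of the 6 genes was not tested.

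**Figure D5:**
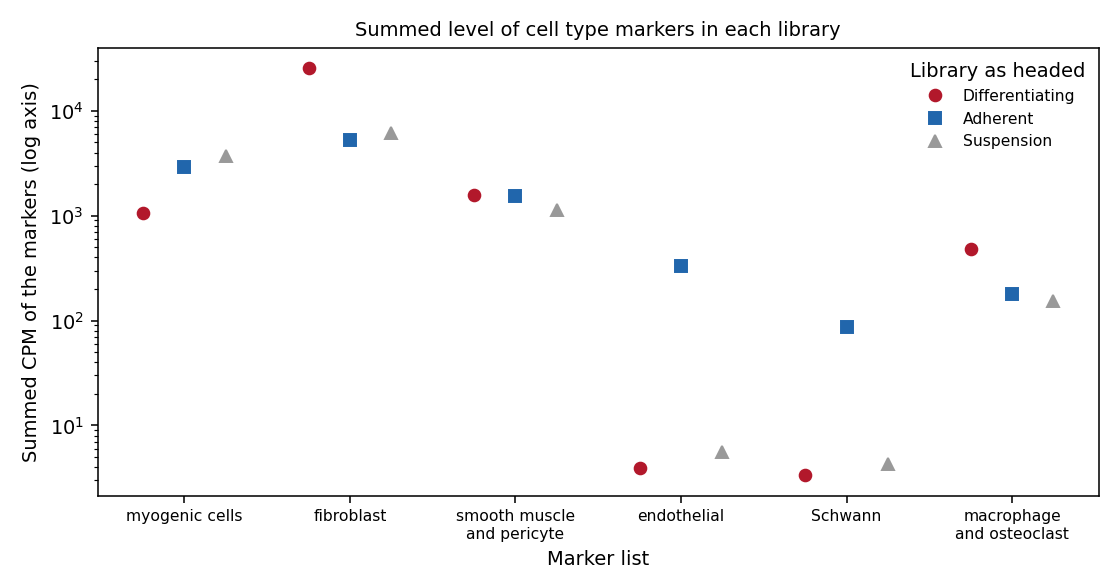
Summed CPM, on a log axis, of marker genes of 6 cell types in the Differentiating (circles), Adherent (squares) and Suspension (triangles) libraries. Endothelial and Schwann cell markers reach 332 and 86.4 CPM in the Adherent library and stay at or below 5.54 CPM in the others, and fibroblast markers are highest in the Differentiating library.

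Macrophage and osteoclast markers (6 of 10 in the table) summed to 485 CPM in the Differentiating, 178 in the Adherent and 153 in the Suspension library. Their parts diverged. CSF1R, the receptor that defines macrophages, had 3.24, 61.6 and 0.503 CPM and the leukocyte gene PTPRC 4.38, 15.0 and 4.07 CPM, both highest in the Adherent library, where SPP1 was lowest. The proteases CTSK and MMP9, which other cells also make, had 294, 82.6 and 104 CPM and 181, 12.3 and 36.3 CPM, highest in the same library as SPP1. The labelled cell type was checked on myogenic genes, of which 5 of 10 were in the table. MYOD1, the factor of committed myoblasts, had 93.8, 1522 and 768 CPM and PAX7, which marks satellite cells, 1.1, 4.93 and 24.2 CPM in the Differentiating, Adherent and Suspension libraries. All 5 myogenic genes found (PAX7, MYF5, MYOD1, DES and MET) were at least 2-fold lower in the Differentiating than in the Suspension library. Over all genes, 14.5% were lower. MYOG and MYMK of the same list matched no feature, so these 5 genes do not show whether myotubes formed.

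For the 4 genes with at least 10 reads in every library, the genes of most similar pattern over the 3 libraries were sought among 8491 genes. The measure was the distance between their log2 CPM values centred on the gene's mean. Features that the table lists by a gene number in place of a symbol were left out of this search. Nearest to SPP1 were ANOS1, COL6A1 and TNS4, at distances of 0.11, 0.13 and 0.18. COMP was followed most closely by WISP1, a matricellular relative of connective tissue growth factor, with 54.0, 2.87 and 1.89 CPM and a distance of 0.22. SOX9 had SUSD4, UCHL1 and TMEM61 at 0.04, 0.08 and 0.08. The nearest to MGP among the genes searched were MEGF10, a receptor of satellite cells, at 1.33 and ESAM, an endothelial adhesion molecule, at 1.35. RGS5, of the pericyte list, was outside the search but ran much as MGP did, with 0.570, 220 and 3.98 CPM. Its log2(ratio) was −8.59 for the Differentiating over the Adherent library and 5.79 for the Adherent over the Suspension library. With 3 points per gene such likeness is a description only.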

How the data were processed

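The deposited counts are exon, intron and whole-gene reads per gene for 3 libraries, to which the authors applied no scaling. By the study's methods, reads were demultiplexed with bcl2fastq 2.20, aligned with STAR 2.5.2b and counted with featureCounts. For the table itself, the sources used here give neither this route, nor the strand setting, nor a genome build; the methods name an older turkey assembly. The deposited fold-change scores are the authors' signed ratios of counts and served only to read the headings. Deposited RPKM values were not used.

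CPM are exon counts scaled to the exon total of the library. Genes were called changed from 2-fold upward, with no pseudocount, if any library held 5 CPM or more. A count of 0 was replaced by a floor of 3, and pairs of counts not above this floor gave no ratio. Intervals of 95% are exact (Poisson for levels, Clopper-Pearson for shares and ratios). With 1 library per group there is no p-value. Positions are those of the table with the start made 1-based, and 94.9% of 19121 genes overlapped their namesake in RefSeq Turkey_5.1. RefSeq was used for names, where it paired 243 features by gene number, and to look for overlaps between genes. Python 3.11.15, numpy 2.4.6, pandas 2.3.3, scipy 1.17.1 and edgeR 4.0.16 (TMM factors) were used, and the ratios and intervals were tested on simulated data. The 10 genes and the lists were chosen with earlier results of these data known. All members found were named, with genes of each list taken from the 4 largest changes and 2 highest means, and others (such as COL10A1, IBSP, DMP1) chosen after their values were seen. A marker was left out of its list and is not reported here. Alternatives in scaling, pseudocount, filter, fold limit, type of read and headings were tried.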

Additional observations from a re-analysis of the deposited data

How the results depend on the processing

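The 6 counts of changed genes and 18 log2 ratios were recomputed under 14 alternatives. No log2 ratio changed sign under the 13 alternatives other than the exchange of headings. Only the changes of scaling and of read type could have turned a sign. Filters and limits leave a ratio as it is, and a pseudocount only shrinks it. Under the same 13 alternatives the counts of the 6 genes stayed within 1.5 times. ACAN for the Adherent over the Suspension library was short of 2-fold with a pseudocount of 1 CPM (0.43) and of 10 CPM (0.05), so that 2 genes were higher there instead of 3. With these pseudocounts ACAN shrank to 6.20 and 3.09 for the Differentiating over the Suspension library and to 5.77 and 3.04 for the Differentiating over the Adherent library. With 10 CPM, IFITM5 for the Differentiating over the Suspension library shrank to 0.37, short of 2-fold. With at least 50 CPM required, SOX9 was left out. Exchanging the Suspension and Adherent headings gave 2 lower genes for the Differentiating over the Suspension library and 1 for the Differentiating over the Adherent library, and 1 higher and 3 lower for the Adherent over the Suspension library. In that last comparison the log2 ratios became −3.26 for ACAN, 2.43 for SPP1, −9.69 for IFITM5 and −5.55 for MGP, and IFITM5 became −6.00 for the Differentiating over the Suspension library and 3.69 for the Differentiating over the Adherent library. No paired analysis was possible because each group is 1 library. Counts over all genes that moved by more than 1.5 times are given as higher and lower. For the Differentiating over the Suspension library (1001 and 1580) they were 469 and 729 with a pseudocount of 10 CPM, 1658 and 2806 with a 1.5-fold limit, 435 and 472 with a 4-fold limit and 1706 and 2383 with no filter. For the Adherent over the Suspension library (2203 and 2385) they were 1311 and 1291 with that pseudocount, 1246 and 809 with the 4-fold limit, 3754 lower with the 1.5-fold limit, 4148 higher with no filter and 3343 higher with reads of whole genes. For the Differentiating over the Adherent library (2017 and 2501) they were 1090 and 1490 with that pseudocount, 770 and 1292 with the 4-fold limit, 3099 higher with the 1.5-fold limit and 4493 lower with no filter. With at least 50 CPM required they were 442 and 759, 941 and 1226, and 1015 and 1110 in the same order of comparisons. This filter left 5250, 5257 and 5257 genes tested. With no filter 14156, 14900 and 14884 genes were tested in that order, and with whole-gene reads 12887 for the Adherent over the Suspension library. In that comparison the 4148 and 3343 higher genes were 27.8% and 25.9% of those tested, against 20.0%. Part of these moves therefore follows from the number of genes tested. The exchange of headings gave 2017 higher and 2501 lower for the Differentiating over the Suspension library and 1001 and 1580 for the Differentiating over the Adherent library, so the shares over all genes change places too. TMM factors shifted the median of all genes by 0.17 for the Differentiating over the Suspension library and by 0.18 for the Differentiating over the Adherent library. The 7 reads or fewer of ACAN outside the Differentiating library and the 6 reads of IFITM5 in the Suspension library limit the precision of their ratios.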

Other observations

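Tendon and joint genes were mostly higher in the Differentiating than in the Suspension library. Of 10 in the table, 8 were higher and 0 lower by 2-fold in this comparison. DCN, FMOD and THBS2, among the 8, and THBS4 also belong to other lists above, so the lists are not independent. Over all genes tested, 9.16% were higher and 14.5% lower. In the Differentiating over the Adherent library 5 were higher and 2 lower (18.3% and 22.7% of all genes), the lower ones being EGR1 and FMOD. THBS4, a relative of COMP, was highest in the Suspension library, with 7.41, 4.87 and 10.7 CPM in the Differentiating, Adherent and Suspension libraries. Scleraxis (SCX), the factor of tendon cells, had 7.80 CPM in the Differentiating, 4.13 in the Adherent and 2.14 in the Suspension library, and tenomodulin (TNMD), a membrane protein of tendon, had 12.1, 6.02 and 3.77 CPM. Both were highest in the library in which COMP was highest. Collagen XIV (COL14A1), a collagen on the surface of fibrils, had 83.1, 24.6 and 0.294 CPM. EGR1, which is also an immediate early gene, stood apart with 142 CPM in the Differentiating, 4684 in the Adherent and 158 in the Suspension library. These genes were described after their values had been seen.

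The neighbours of the 6 genes in the genome were of mixed pattern. HAPLN3 lies 422 bases from ACAN and was not low in the Adherent library as ACAN was. DMP1, the neighbour of SPP1 at lower coordinates, stayed below 5 CPM in all 3 libraries. An unnamed feature 3695 bases beyond MGP had 0.745 CPM in the Differentiating, 38.5 in the Adherent and 0 reads in the Suspension library, and was highest in the same library as MGP.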
